A study of Mus musculus with 8 samples.

Results

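The type I interferon stimulated genes described here are 29 genes taken by symbol from the deposited table, and all 29 had a row among its 34899 genes. Interferons alpha and beta bind a receptor made of IFNAR1 and IFNAR2, and the kinases JAK1 and TYK2 attached to it phosphorylate STAT proteins, STAT2 among them. STAT2 and IRF9 are parts of the complex ISGF3, which binds the interferon-stimulated response element (ISRE) in the promoters of antiviral genes. Endothelial cells of the lung carry this receptor, and the antiviral genes induced through it are commonly used as a readout of interferon signalling.

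Endothelial cells had been sorted from lungs of female C57BL6 mice as CD45- CD31+ cells, and the design text gives 4 HF and 4 LF mice. The labels spell out neither HF nor LF, and they give neither the age of the mice nor the length of any feeding. The series' title names obesity, neutrophil oxidative stress and vascular inflammation. All mice were of 1 strain with no transgene or deletion named, and the cells were not cultured as far as the labels say. Full-length cDNA was made with a SMART-Seq kit, and each library gave 10631506 to 20781564 reads, recovered as whole numbers from the normalised counts. Values below are normalised counts, reads divided by a size factor of the library, and they are not scaled for gene length unless stated.

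The label of the cells held for its defining markers. Pecam1, which encodes CD31, was at 27426, 28666, 27351 and 29564 normalised counts in HF 1 to HF 4 and 19424, 19737, 29129 and 33236 in LF 1 to LF 4. Ptprc, which encodes CD45, was at 121, 248, 90.4 and 204 in the HF libraries and 265, 127, 182 and 223 in the LF libraries. The 12 endothelial markers summed to 199390.0 to 224599 over the HF libraries and 145653, 156203, 207658 and 239023 in LF 1 to LF 4, so LF 1 and LF 2 were the lowest libraries. These 2 libraries also stood apart over all genes on the first principal component (36.1% of the variance, scores −56.4 and −50.9 against −6.79 to 39.6 in the other 6), and LF 3 and LF 4 did on the second (17.5%, −38.5 and −34.2 against −1.41 to 29.6). No label distinguishes the LF libraries from each other.

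ISREs read from RefSeq promoter sequences (GRCm38.p6, 250 bases before to 50 bases after each start) show the element through which the members are known to be induced together. The motif searched was GAAANNGAAA on both strands. Promoter entries matched 20 of the 29 members, and 11 of these 20 genes (55.0%) held a match, against 1079 of 27025 genes (3.99%) in the whole table. The share was also high in related genes outside the members. It was 28 of 64 (43.75%) in other interferon-stimulated genes and 43 of 125 (34.4%) in the further pathway genes that include them. The GAS motif TTCNNNGAA, a palindrome, was in 3 of 20 members (15%) against 9.55% of all genes. It was in 6.25% of the other interferon-stimulated genes and 20.8% of the further pathway genes. Matches of 1 motif can overlap each other, as the 3 in Isg15 do, and in Bst2 alone a GAS match shared bases with an ISRE match. The windows with matches before the start are given 5′ to 3′ on the strand of the gene, with the motif in capitals.
Ifit1 (chr19:34640770-34640828, plus strand): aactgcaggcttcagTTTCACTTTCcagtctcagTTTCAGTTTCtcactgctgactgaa
Ifit3 (chr19:34583358-34583397, plus strand): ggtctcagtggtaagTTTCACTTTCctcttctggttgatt
Ifit3 (chr19:34583392-34583431, plus strand): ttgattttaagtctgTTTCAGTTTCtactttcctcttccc
Ifit3b (chr19:34607754-34607793, plus strand): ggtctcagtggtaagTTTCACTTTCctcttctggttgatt
Ifit3b (chr19:34607788-34607827, plus strand): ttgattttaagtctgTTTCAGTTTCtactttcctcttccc
Isg15 (chr4:156200860-156200911, minus strand): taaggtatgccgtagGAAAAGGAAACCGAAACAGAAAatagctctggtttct
Rsad2 (chr12:26456548-26456587, minus strand): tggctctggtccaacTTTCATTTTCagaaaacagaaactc
Oas1a (chr5:120907526-120907560, minus strand): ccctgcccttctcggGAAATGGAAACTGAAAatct
Bst2 (chr8:71537572-71537617, minus strand): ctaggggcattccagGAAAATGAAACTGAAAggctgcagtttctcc
Stat2 (chr10:128270261-128270300, plus strand): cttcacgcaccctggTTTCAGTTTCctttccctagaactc
Cxcl10 (chr5:92349078-92349117, minus strand): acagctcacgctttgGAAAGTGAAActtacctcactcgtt

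Both Ifit3 windows were identical to those of Ifit3b, its neighbour. The Ifit1, Ifit3, Ifit3b, Rsad2 and Stat2 matches lay on the strand opposite to the gene, and those of Isg15, Oas1a, Bst2 and Cxcl10 on the same strand. Ddx58 and Ifih1 had a match that did not lie wholly before the start. Oasl1, Oasl2, Irf7, Irf9, Ifi44, Xaf1, Lgals3bp, Cxcl9 and Ifit2 had none in this window.

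Levels per kilobase of exon ranged widely among the members, with the surface protein genes highest. On this scale Ly6e, a GPI-anchored surface protein, was at 8957 ± 506 in HF and 8528 ± 2296 in LF normalised counts per kilobase (mean ± SD, n = 4 each). Bst2, tetherin, which holds budding virions at the cell surface, was second at 4202 ± 306 in HF and 4545 ± 1483 in LF. Lgals3bp, a secreted glycoprotein, was at 1926 ± 224 in HF and 1596 ± 599 in LF. Below these came Ifit3, Rtp4 and Isg15, whose order depended on the group: Ifit3 was at 1209 ± 205 in HF and 1493 ± 589 in LF, Rtp4 at 1311 ± 76 in HF and 1297 ± 558 in LF and Isg15 at 1067 ± 118 in HF and 1285 ± 309.9 in LF. The means of these 3 neighbours lay within the SD of the LF libraries. Mx1 (2.57 ± 3.01 in HF and 2.67 ± 1.80 in LF) and Cxcl9 (2.46 ± 1.54 in HF and 4.48 ± 2.16 in LF) were the lowest members. They rested on 1 to 33 and 2 to 20 reads per library, while every other member had at least 83 reads in each library.

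Mx1, the dynamin-like GTPase that blocks influenza virus and is known to be defective in common laboratory strains including C57BL/6, was at 9.15, 0.889, 2.91 and 26 normalised counts in HF 1 to HF 4 and 17.1, 9.24, 13 and 1.13 in LF 1 to LF 4. It did not reach the minimum of 10 normalised counts in 4 or more libraries that a gene needed to be tested, so 28 of the 29 members were tested.

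No member passed the test for a difference between HF and LF, the question the groups address. limma's moderated test called 0 of 28 members at an adjusted p under 0.05 and 0 of all 17067 genes tested (0%), and the members' adjusted p ran from 0.308 to 0.992. At an unadjusted p under 0.05 there were 1882 genes, 11% of those tested, and 1 member, which was lower in HF (0 members were higher, against 6.36% of all genes). edgeR's quasi-likelihood test called 0 genes, and DESeq2 called 313 genes, 2.17% of those it gave an adjusted p, and 0 members. Per the authors' deposited table, calls were made for 311 of 15276 genes with an adjusted p and for 0 of the 27 members with one, whose adjusted p ran from 0.107 to 0.998. HF and LF values overlapped for all 28 members, and 5.43% of all genes had groups that did not overlap. The mean, taken here and below over log2 values where members are counted, was higher in HF for 10 of 28 members against 53.2% of all genes, and the median log2 difference (HF minus LF) was −0.06 for the members and 0.02 for all genes. From the lowest to the highest library, the median member spanned 1.85-fold within LF and 1.31-fold within HF, against 1.64-fold and 1.37-fold for all genes. In bulk RNA, fewer cells of a type and less RNA per cell cannot be told apart.

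**Figure D1:**
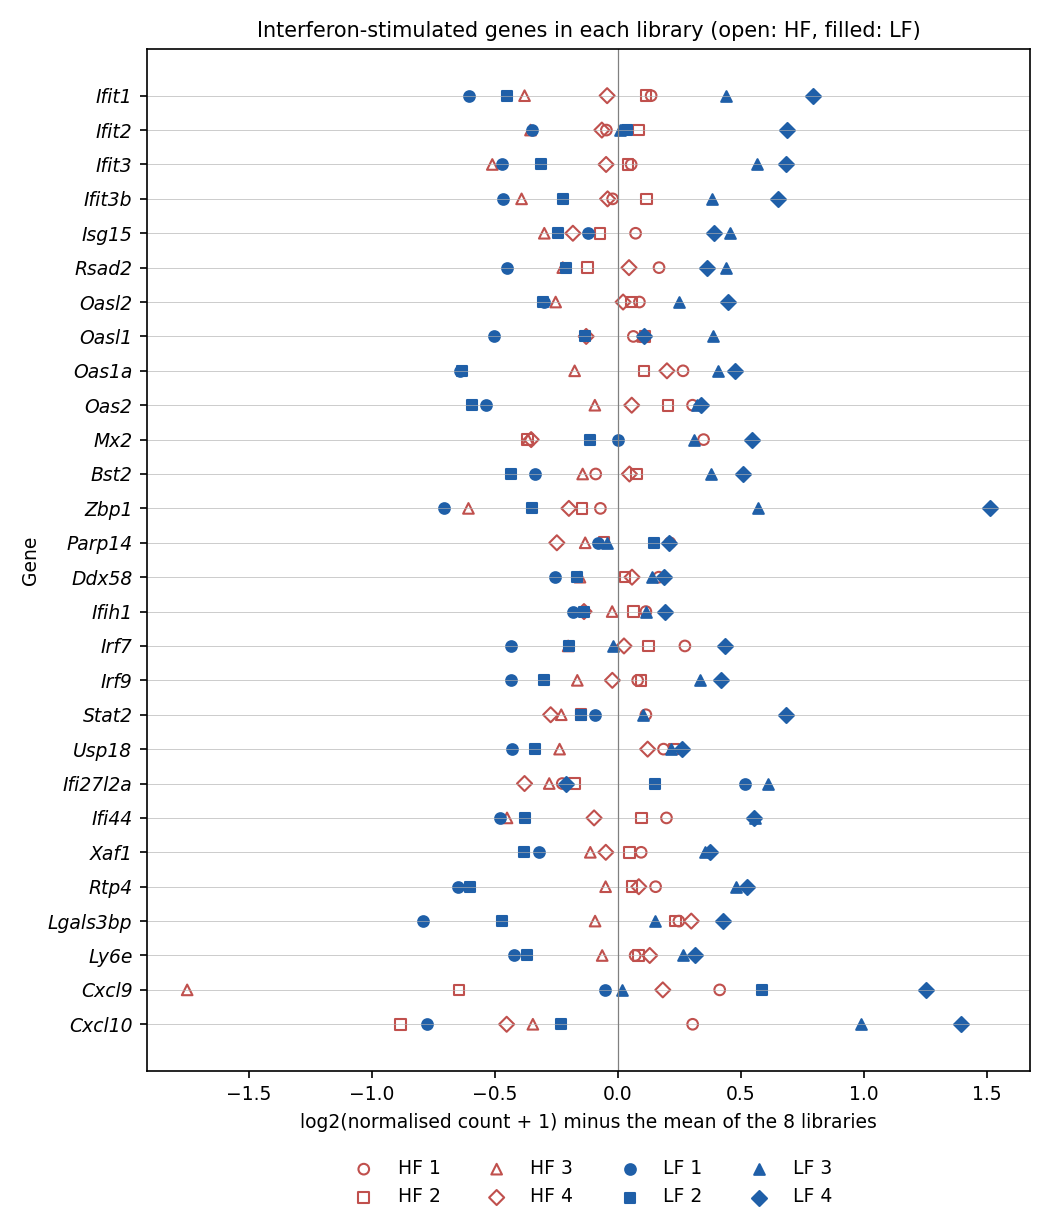
Each row is a member and each point a library, plotted as log2(normalised count + 1) minus the member's mean over the 8 libraries; open symbols are HF and filled symbols LF. LF 3 and LF 4 both sit to the right of LF 1 and LF 2 in 24 of 28 members.

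Antiviral effectors made up 15 members, and 3 of the 14 tested had the higher mean in HF. Ifit1, which binds viral RNA lacking a host cap structure (chr19:34640871-34650009 on GRCm38), was at 2119.7, 2088, 1484 and 1872 normalised counts in HF 1 to HF 4 and 1268, 1413, 2616 and 3349.6 in LF 1 to LF 4. LF 1 and LF 2 lay below all HF libraries and LF 3 and LF 4 above all of them, so the HF group was nested inside the LF range. The fitted HF to LF ratio was 0.941-fold (95% interval 0.627 to 1.41, limma adjusted p = 0.909). Ifit3 (chr19:34583531-34588731), a partner of Ifit1, was at 2345, 2325, 1586 and 2185 in the HF libraries and 1629, 1819.7, 3346 and 3629 in the LF libraries, and its copy Ifit3b (chr19:34607970-34613401) at 793, 873, 613 and 781 in the HF libraries and 582, 688, 1048 and 1264 in the LF libraries. In both, LF 3 and LF 4 were the highest libraries, and HF 3 was close to LF 1. Ifit2 (chr19:34550694-34576419), the remaining member of this cluster on chromosome 19, was at 561, 614, 453 and 554 in the HF libraries and 455, 595, 583 and 934 in the LF libraries; only LF 4 stood above the HF libraries. Ifit3 shared 51.2% of its 50-base words with Ifit3b, and Ifit3b 44.5% with Ifit3, so their separate values are uncertain.

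Isg15, a ubiquitin-like modifier that is conjugated to viral and host proteins (chr4:156199424-156200818), was at 918, 830.0, 709 and 769 normalised counts in HF 1 to HF 4 and 803, 738, 1198 and 1146 in LF 1 to LF 4. LF 3 and LF 4 were above every HF library, and LF 1 and LF 2 fell within the HF range. Its ratio was 0.845-fold (95% interval 0.656 to 1.09, limma adjusted p = 0.608). Rsad2, viperin, which makes a chain-terminating nucleotide (chr12:26442746-26456452), was at 631, 515, 481 and 579.8 in the HF libraries and 411, 485, 763 and 721 in the LF libraries. Here too LF 3 and LF 4 were the highest, and LF 1 was the lowest.

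Oligoadenylate synthetases are known for making the messenger that activates RNase L when they sense double-stranded RNA. The 4 members from this family, synthetase-like proteins included, lie on chromosome 5. Oas1a (chr5:120896256-120907521) was at 664, 595, 489 and 634 in the HF libraries and 354, 356, 733 and 768 in the LF libraries, and Oas2 (chr5:120730333-120749853) at 1406, 1313, 1068 and 1185 in the HF libraries and 786, 756, 1424 and 1442 in the LF libraries. In both, LF 1 and LF 2 were below the lowest HF library, while LF 3 and LF 4 were above the highest. Ratios were 1.15-fold (95% interval 0.785 to 1.67, limma adjusted p = 0.771) for Oas1a and 1.18-fold (95% interval 0.852 to 1.62, limma adjusted p = 0.688) for Oas2. Oas1a shared 57.6% of its 50-base words with Oas1g, so its value is uncertain. The synthetase-like Oasl2 was at 3211, 3141, 2536 and 3067 in the HF libraries and 2456, 2449.6, 3588 and 4119 in the LF libraries, with the same order of the LF libraries, and Oasl1 at 150.4, 156, 154 and 132 in the HF libraries and 101, 131, 189 and 155 in the LF libraries, where LF 4 fell within the HF range.

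Bst2 (chr8:71534255-71537456) was at 3627, 4067, 3496 and 3988 normalised counts in HF 1 to HF 4 and 3059.9, 2858, 5014 and 5486 in LF 1 to LF 4. The 4 HF libraries differed by 1.16-fold from lowest to highest and the LF libraries by 1.92-fold, with LF 1 and LF 2 below and LF 3 and LF 4 above all HF values. Zbp1, a sensor of left-handed nucleic acid that can start necroptosis (chr2:173206612-173218923), was at 429, 407, 295 and 392 in the HF libraries and 276, 354, 669 and 1286 in the LF libraries. Its LF libraries spanned 4.65-fold, a range wider than that of 96.2% of all genes, and LF 4 was its highest library. The HF to LF ratio was 0.701-fold (95% interval 0.399 to 1.23, limma adjusted p = 0.621). Mx2, the cytoplasmic relative of Mx1, was at 431, 262, 262 and 265 in the HF libraries and 338, 312, 419.5 and 494 in the LF libraries, with HF 1 among the LF values. Parp14, an ADP-ribosyltransferase, was at 2714, 2255, 2137 and 1973 in the HF libraries and 2213, 2596, 2272 and 2708 in the LF libraries; its LF range of 1.22-fold was the narrowest of the members, and HF 1 was its highest library.

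**Figure D2:**
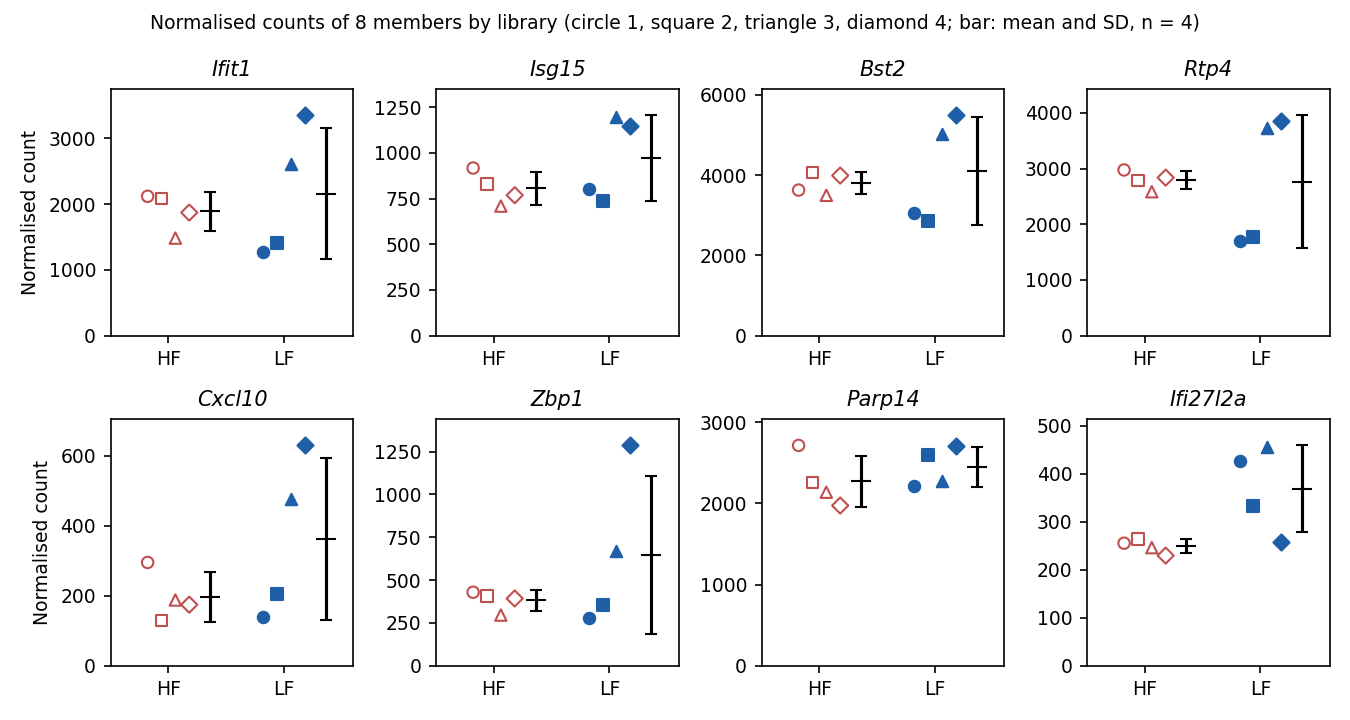
Normalised counts (vertical axes from 0) of 8 members in the 4 HF (open) and 4 LF (filled) libraries, with the mean and SD of each group beside them. Ifit1, Bst2 and Rtp4 have LF 1 and LF 2 below and LF 3 and LF 4 above the HF libraries, while Parp14 and Ifi27l2a do not.

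Cytosolic RNA sensors varied little. Ddx58, which encodes RIG-I, was at 2156, 1960.5, 1726 and 1999 in the HF libraries and 1610.5, 1711, 2116 and 2188 in the LF libraries. Ifih1, which encodes MDA5, was at 1121, 1082, 1019 and 941 in the HF libraries and 914, 941, 1120.1 and 1184 in the LF libraries. Ratios were 1.03-fold (95% interval 0.847 to 1.26, limma adjusted p = 0.897) and 1.01-fold (95% interval 0.834 to 1.21, limma adjusted p = 0.986), and in each gene LF 1 was the lowest and LF 4 the highest library.

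Among the transcription factors, Irf9, the DNA-binding subunit of ISGF3 (chr14:55603571-55610030), was at 3350.2, 3382, 2826 and 3119 normalised counts in HF 1 to HF 4 and 2343, 2571, 3995 and 4239.6 in LF 1 to LF 4. LF 1 and LF 2 were below and LF 3 and LF 4 above all HF libraries, and the ratio was 0.995-fold (95% interval 0.752 to 1.32, limma adjusted p = 0.992). Stat2, its partner (chr10:128270559-128292849), was at 2671, 2224, 2104 and 2043 in the HF libraries and 2316, 2224, 2652 and 3964 in the LF libraries. Only LF 4 stood clear of the HF libraries there. Irf7, the factor that amplifies interferon alpha transcription (chr7:141262706-141266481), was at 1306, 1178, 939.5 and 1099.7 in the HF libraries and 800.4, 941, 1067 and 1462 in the LF libraries. LF 1 was the lowest and LF 4 the highest, and LF 3 lay among the HF libraries. Usp18, the protease that removes ISG15 and blocks signalling at IFNAR2 (chr6:121245906-121270917), was at 1489, 1533, 1111 and 1423 in the HF libraries and 969.9, 1035, 1519 and 1569.6 in the LF libraries. LF 1 and LF 2 were below every HF library, and LF 3 and LF 4 were level with the upper HF values. Irf9 shares exon bases with Rnf31 on the same strand, and the exons of Irf7 and Usp18 overlap those of Phrf1 and Gm44148 on the other strand. Whether the counting used strand is not stated in the labels or headers.

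Of the 6 other induced proteins, 3 had the higher mean in HF. Ifi27l2a, a small hydrophobic protein of the ISG12 family (chr12:103442167-103443680), was at 255, 264, 246 and 229 normalised counts in HF 1 to HF 4 and 427, 332, 456 and 258 in LF 1 to LF 4. LF 1, LF 2 and LF 3 were above all HF libraries and LF 4 lay within the HF range. The ratio was 0.692-fold (95% interval 0.527 to 0.909, limma adjusted p = 0.308), with an unadjusted p = 0.0122, the only member under 0.05 against 4.67% of all genes that were lower in HF at that level. An exact two-sided permutation test over the 8 libraries gave p = 0.0571, where 0.0286 is the smallest that 4 against 4 can give. Its adjusted p did not pass the threshold, and it departed from the order of the LF libraries seen in most members.

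Rtp4, a chaperone of receptors that also binds viral RNA (chr16:23520291-23614222), was at 2974, 2784, 2583 and 2837 normalised counts in HF 1 to HF 4 and 1704, 1763, 3736 and 3849 in LF 1 to LF 4. The HF libraries differed by only 1.15-fold and the LF libraries by 2.26-fold. It shares exon bases and 11.6% of its 50-base words with Gm45338, so part of this value is uncertain. Lgals3bp (chr11:118392751-118402092) was at 5748, 5692, 4539 and 5952 in the HF libraries and 2796, 3491, 5373 and 6515 in the LF libraries, and had the highest ratio of the members at 1.27-fold (95% interval 0.898 to 1.79, limma adjusted p = 0.594). LF 1 and LF 2 were below all HF libraries. Ly6e (chr15:74955051-74959905) was at 34204, 34553, 31174 and 35641 in the HF libraries and 24299, 25244, 39092 and 40451 in the LF libraries. Ifi44, a GTP-binding protein, was at 1881, 1753, 1199.9 and 1534 in the HF libraries and 1176, 1264, 2416 and 2409.8 in the LF libraries, and Xaf1, a partner of the XIAP apoptosis inhibitor, at 2123, 2055, 1839 and 1921 in the HF libraries and 1589.7, 1527, 2538 and 2574 in the LF libraries. In Ly6e, Ifi44 and Xaf1, LF 1 and LF 2 were below and LF 3 and LF 4 above the HF libraries, except that HF 3 of Ifi44 lay between LF 1 and LF 2.

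The chemokines had the lowest ratios. Both attract T and NK cells through CXCR3, and Cxcl9 is known to respond mainly to interferon gamma. Cxcl10 (chr5:92346638-92348889) was at 295, 129, 188 and 174 normalised counts in HF 1 to HF 4 and 139, 203, 475 and 629 in LF 1 to LF 4. LF 3 and LF 4 stood above all HF libraries, while LF 1 and LF 2 lay among them. Its ratio was 0.620-fold (95% interval 0.332 to 1.16, limma adjusted p = 0.559). Exons of Cxcl10 overlap those of Art3 on the other strand by 133 bases (5.91% of its exon length), and whether the counting used strand is not stated. Cxcl9 (chr5:92321347-92328079) was at 12.2, 5.33, 1.94 and 10.2 in the HF libraries and 8.54, 13.9, 9.03 and 22.6 in the LF libraries. At 2 to 20 reads per library its ratio of 0.536-fold (95% interval 0.237 to 1.21, limma adjusted p = 0.559) has a wide interval.

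**Figure D3:**
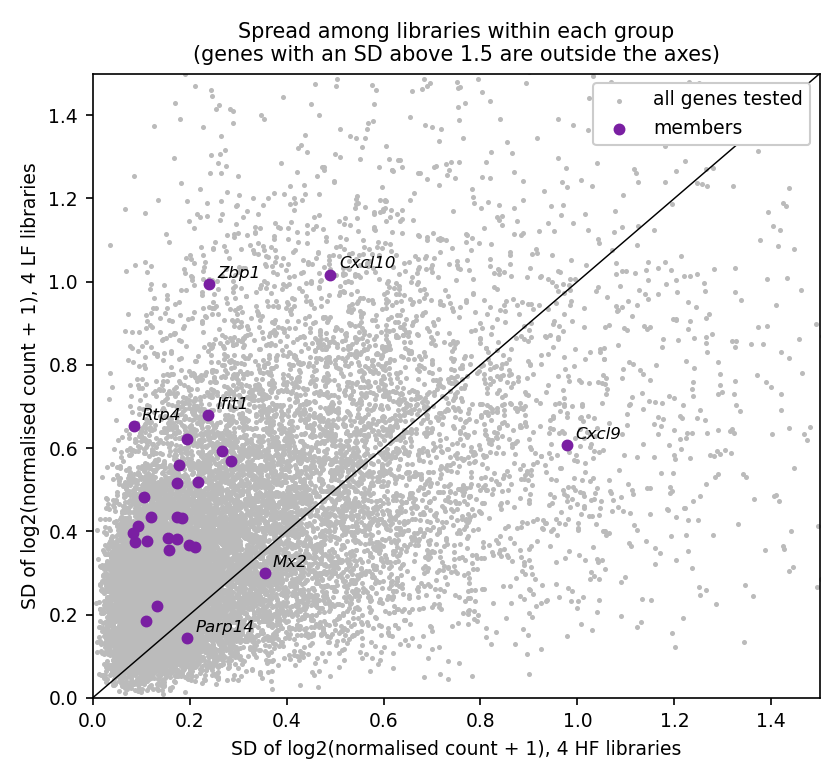
Each point is a gene; the horizontal axis is the SD of log2(normalised count + 1) over the 4 HF libraries and the vertical axis that over the 4 LF libraries, with members in purple, all genes tested in grey and the line of equal SD in black. Of the 28 members, 25 lie above the line, and Mx2, Parp14 and Cxcl9 lie below it.

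Spread within LF exceeded spread within HF for most members. The median SD of log2 values was 0.176 in HF and 0.433 in LF for the members, against 0.205 and 0.326 for all genes. The LF SD was the larger in 25 of 28 members (89.3%) and in 71.5% of all genes. Library by library, the members' median log2 deviation from their mean over the 8 libraries was 0.12, 0.06, −0.23 and −0.04 in HF 1 to HF 4 and −0.43, −0.27, 0.34 and 0.44 in LF 1 to LF 4. LF 1 was the lowest of the 8 libraries for 15 members and LF 4 the highest for 22. LF 3 and LF 4 were both above LF 1 and LF 2 in 24 of 28 members (85.7%), against 32.3% of all genes. In 9 members (32.1%) LF 1 and LF 2 were the 2 lowest and LF 3 and LF 4 the 2 highest of all 8 libraries, against 669 genes (3.92%), and the opposite order occurred in 0 members and 1.42% of all genes. Within HF, HF 3 was the lowest library in 21 of 28 members (75.0%), against 25.7% of all genes. These shares are descriptions of these libraries, since members move together and are not independent of each other.

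The size and sign of the HF to LF differences depended on which LF libraries were kept. The pairs left out here were chosen from these data, because LF 1 and LF 2 and, separately, LF 3 and LF 4 stood apart over all genes. For members ordered as described above the direction follows from that choice, so the counts below restate the order of the libraries in another form and are no separate test of HF against LF. With LF 1 and LF 2 left out, all 28 members had the lower mean in HF, and with LF 3 and LF 4 left out 23 of 28 had the higher mean. HF and LF values no longer overlapped, with HF lower, for 16 members in the first fit, against 10.5% of all genes. In the second they no longer overlapped for 14 members with HF higher and 1 with HF lower, against 26.9% and 19.2% of all genes. The first fit placed 8 members below the adjusted threshold, all lower in HF, where 641 genes (3.76%) did so, 0.662% of all genes lower and 3.09% higher. These members were Ifit1, Ifit3, Ifit3b, Isg15, Bst2, Zbp1, Rtp4 and Cxcl10. The log2 difference (HF minus LF) was −1.54 for Cxcl10, −1.30 for Zbp1 and −0.74 for Ifit3. In the second fit 3421 genes (20%) were below it, 14% of all genes higher and 6.02% lower, with 10 members higher in HF and Ifi27l2a lower. The 10 were Ifit1, Oas1a, Oas2, Bst2, Irf9, Usp18, Xaf1, Rtp4, Lgals3bp and Ly6e, with log2 differences of 0.80 for Lgals3bp and 0.74 for Oas1a. Members' median log2 difference was −0.44 in the first and 0.29 in the second, against −0.03 and 0.03 for all genes. Both fits use the same 4 HF libraries and only 2 LF libraries each, and no label favours either set.

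**Figure D4:**
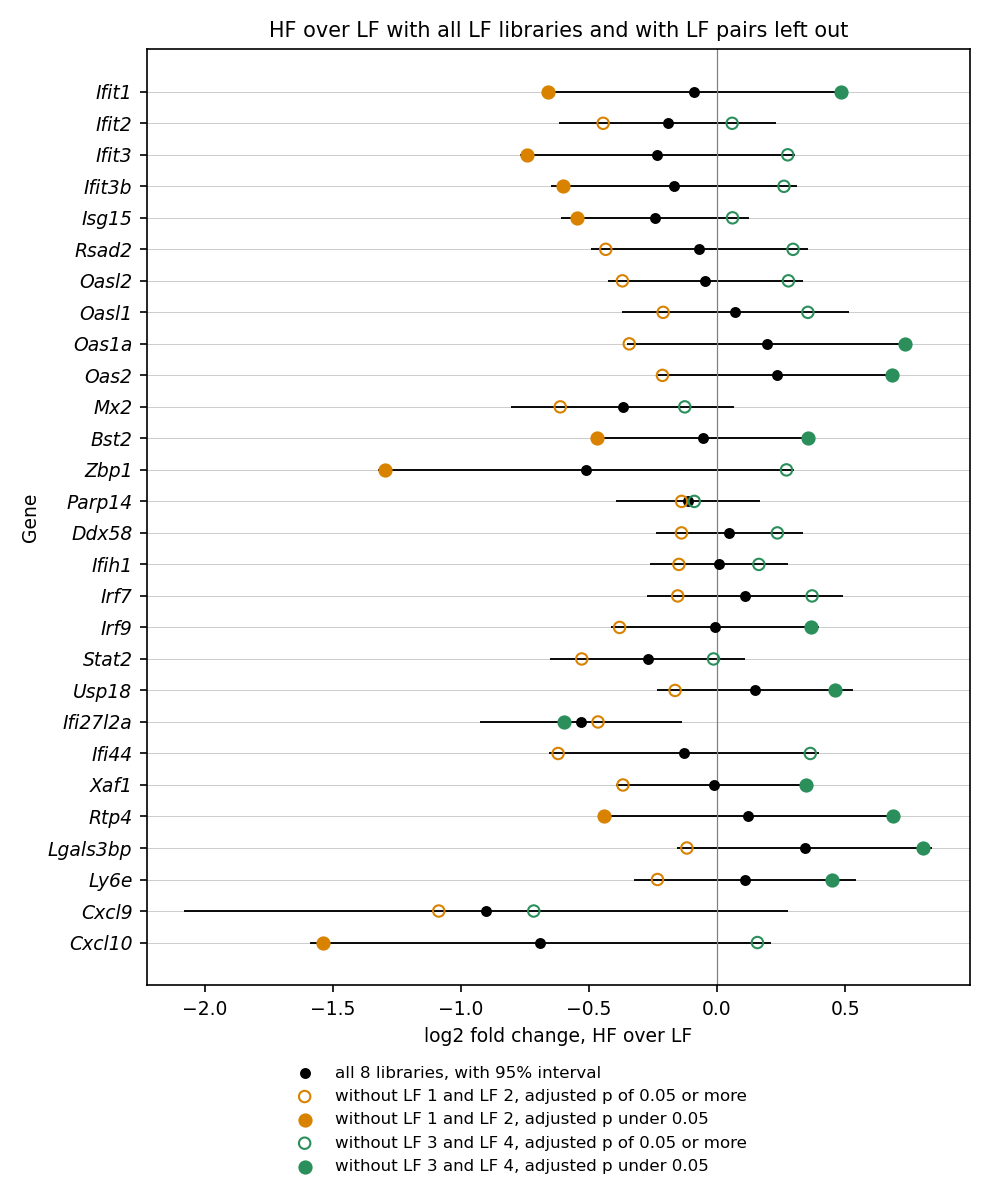
Horizontal axis: log2 fold change of HF over LF for each member with all 8 libraries (black, with 95% interval), without LF 1 and LF 2 (orange) and without LF 3 and LF 4 (green), where filled orange or green points have a limma adjusted p under 0.05. With all libraries every interval but that of Ifi27l2a crosses 0. For 23 of 28 members the orange point is below 0 and the green point above, against 28.1% of all genes. The LF pairs were chosen from these data, so the orange and green points restate the order of the libraries and are no separate test.

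Several cell-type and RNA measures differed among the LF libraries or between the groups. The median log2 deviation of the 12 endothelial markers was 0.06, 0.18, −0.004 and 0.17 in HF 1 to HF 4 and −0.36, −0.35, 0.07 and 0.27 in LF 1 to LF 4, lowest in the same LF libraries as the members, but 0.07 in LF 3 where the members were at 0.34. Of these 12 markers 11 had the higher mean in HF. Erg alone had the lower, at 746, 599.9, 708 and 771 in the HF libraries and 1044, 1034, 850.1 and 845 in the LF libraries (limma unadjusted p = 0.00746, adjusted p = 0.261). With values divided by each library's endothelial marker level, 3 of 28 members had the higher mean in HF, against 27.6% of all genes, and 0 were called. That scaling moved the median of all genes to −0.14 and of the members to −0.23 on the log2 scale. Markers of red cells and platelets, 10 genes, summed to 23209.9 to 26251 over the HF libraries and 26197, 25239, 44666 and 36584 in LF 1 to LF 4, a sum made mostly of globin reads. Hbb-bs, a beta globin, was at 9008, 8171, 8396 and 9378 in the HF libraries and 8960.1, 9362, 16696 and 12998 in the LF libraries, highest in LF 3 and LF 4, whereas the platelet gene Pf4 was at 282, 1091, 244 and 501 in the HF libraries and 497, 221, 245 and 559 in the LF libraries, highest in HF 2 and low in LF 3. Epithelial markers, 13 genes, summed to 12090.1 to 22692 over the HF libraries and 23397, 34228, 15484 and 20604 in LF 1 to LF 4. Of the 12 tested, 1 had the higher mean in HF, against 53.2% of all genes, and 4 had an unadjusted p under 0.05 and the lower mean in HF. Smooth muscle and pericyte markers, 10 genes, summed to 3045 to 3521 over the HF libraries and 4212, 5471, 3599 and 4559.6 in LF 1 to LF 4, with every HF library below every LF library, and 5 of the 10 had an unadjusted p under 0.05 and the lower mean in HF, against 4.67% of all genes. Fibroblast markers, 9 genes, summed to 6444 to 9676 over the HF libraries and 9697, 12694, 9437 and 11348 in LF 1 to LF 4; all 9 had the lower mean log2 value in HF, 6 of them with an unadjusted p under 0.05. limma called 0 genes of the epithelial, muscle and fibroblast lists. Monocyte and macrophage markers, 14 genes, summed to 5038 to 7988 over the HF libraries and 7705, 7969.6, 9265 and 7902 in LF 1 to LF 4. Among tested genes, the mean was higher in HF for 3 of 11 of these, 0 of 5 neutrophil and 0 of 4 B lymphocyte markers. It was higher for 1 of 4 T and NK and 1 of 5 dendritic cell markers. An unadjusted p under 0.05 with the lower mean in HF was reached by 3 of the 11 monocyte and macrophage markers. The same held for 1 B lymphocyte and 1 dendritic cell marker, and for 0 neutrophil and 0 T and NK markers, against 4.67% of all genes. limma called 0 genes of these lists. Siglech, the defining marker of plasmacytoid dendritic cells, the main producers of interferon alpha, was at 5.08, 1.78, 0 and 9.45 in the HF libraries and 1.22, 1.85, 11 and 2.26 in the LF libraries, too low to be tested. Of the 9 markers of these cells 5 were tested. Tcf4 was at 7062 to 9732 over the libraries, and Ccr9, Cox6a2, Runx2 and Ly6d were at 1.94 to 52.5. The median log2 deviation of these 5 genes was −0.24, 0.41, −0.66 and −0.09 in HF 1 to HF 4 and 0.18, 0.18, −0.09 and −0.11 in LF 1 to LF 4. It rests mostly on genes with low counts. Unlike Siglech, Ccr9 and Runx2 were lowest in LF 3 and highest in LF 1. The share of reads on unconfirmed gene models was 0.725% in LF 1 and 0.635% in LF 2, and 0.286% to 0.443% in the other libraries. The part of these measures in the members' values was not tested.

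**Figure D5:**
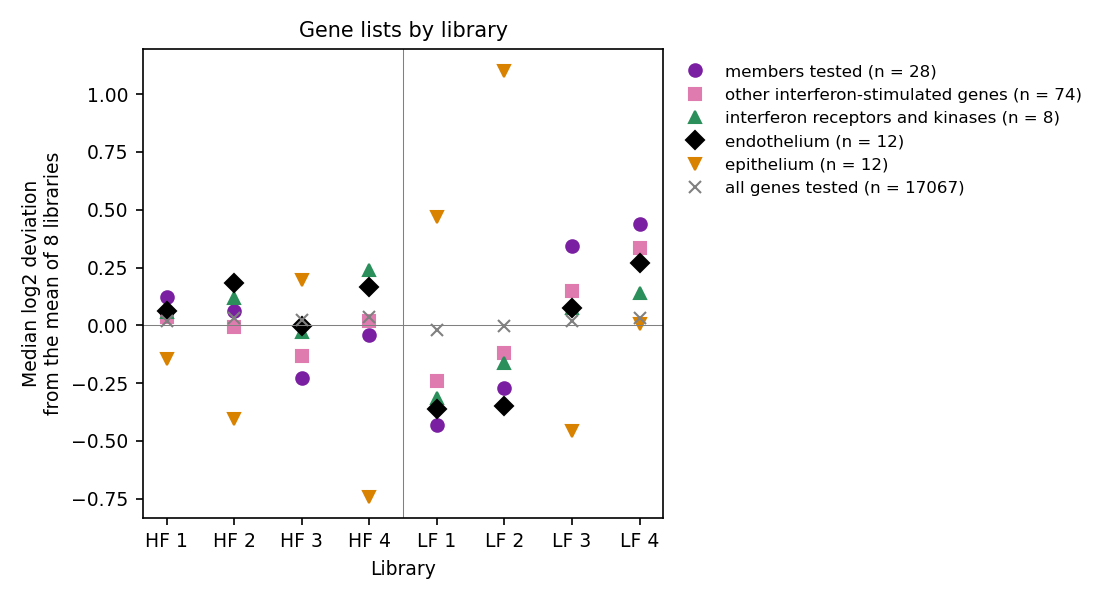
Vertical axis: median log2 deviation of the genes of each list from their mean over the 8 libraries, plotted by library (horizontal axis), for the members, 2 pathway lists, 2 cell marker lists and all genes tested. Members, other interferon-stimulated genes and endothelial markers are lowest in LF 1 and highest in LF 4, whereas epithelial markers are highest in LF 2.

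The rest of the interferon pathway gave 136 further genes with a row out of 152 listed, of which 120 were tested. limma called 0 of them, edgeR 0 and DESeq2 1. An unadjusted p under 0.05 was reached by 8 of the 120 (6.67%), a smaller share than the 11% of all genes, with 58 higher and 62 lower in HF by their means. Interferon ligands were almost without reads. Of 21 ligand genes 10 had a row, none reached the filter, and together they had 3 to 16 reads per library and 69 in all. Ifnb1, interferon beta, had 1 read, in LF 2.

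Receptors and their kinases had the higher mean in HF in 7 of 8 genes tested. Ifngr1, the ligand-binding chain of the interferon gamma receptor, was at 7693, 8587, 7130.4 and 8228 in the HF libraries and 4803, 5564, 7026 and 8057 in the LF libraries, and its partner Ifngr2 at 1725, 2369, 1862 and 2226 in the HF libraries and 1447, 1296, 2193 and 1956 in the LF libraries. Ifnar2, of the type I receptor, was at 2711, 2864, 2532 and 3225 in the HF libraries and 2053, 2286, 2784 and 2619 in the LF libraries. The kinase Jak2, which serves the gamma receptor, was at 563, 751, 912 and 1002 in the HF libraries and 658, 650.3, 630.3 and 534 in the LF libraries, and Jak1, which serves both, at 7799, 8164, 7525 and 8359 in the HF libraries and 6409, 7085, 8226 and 9081 in the LF libraries. Groups overlapped for each of these 5 genes, with adjusted p from 0.471 (Jak2) to 0.871 (Jak1) in limma's test. LF 1 was the lowest library for Ifngr1, Ifnar2 and Jak1.

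STAT and IRF factors outside the members were higher in HF by their means in 3 of 7 genes. Irf1, an early factor in interferon gamma responses, was at 19354, 15210.1, 17537 and 17486 in the HF libraries and 10268, 12885, 18917 and 22157 in the LF libraries, with LF 1 and LF 2 below and LF 4 above the HF libraries. Irf8 was at 368, 325, 353 and 310.4 in the HF libraries and 351, 486, 409 and 470.4 in the LF libraries; its ratio was 0.795-fold (95% interval 0.641 to 0.985, limma adjusted p = 0.419), with an unadjusted p = 0.0378. Irf5, at 47.8, 33.8, 6.80 and 35.4 in the HF libraries and 81.7, 36.9, 55.2 and 43 in the LF libraries, Irf3, at 1559, 1377, 1476 and 1427 in the HF libraries and 1227, 1259, 1385 and 1405 in the LF libraries, and Stat3, at 5069, 5309, 5248 and 5184 in the HF libraries and 4195, 5006, 4804 and 6768 in the LF libraries, had groups that overlapped and adjusted p of 0.490, 0.621 and 0.956 in limma's test.

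Sensing and signalling genes were higher in HF by their means in 9 of 14. Tlr3, the endosomal sensor of double-stranded RNA, was at 1341, 1519.7, 1257 and 1380.1 in the HF libraries and 924, 878, 1197 and 1449.8 in the LF libraries. Traf6, a ubiquitin ligase below the Toll-like receptors, was at 950.1, 942, 901 and 981 in the HF libraries and 622, 767, 798 and 962 in the LF libraries, and Mavs, the mitochondrial adaptor of RIG-I and MDA5, at 845, 943, 763 and 1048 in the HF libraries and 483, 662, 922 and 989 in the LF libraries. In these 3 genes LF 1 and LF 2 were below all HF libraries. Trim25, the ligase that modifies RIG-I, varied little, at 2262, 2257, 2188 and 2117 in the HF libraries and 2157, 2300.0, 2260.2 and 2101 in the LF libraries. Tbk1, the kinase of IRF3, was at 1958, 2261, 1929 and 2126 in the HF libraries and 1709, 1784, 2029 and 2205 in the LF libraries, and Traf3 at 284, 283, 309.9 and 236 in the HF libraries and 326, 321, 276 and 323 in the LF libraries. The 6 adjusted p ran from 0.465 to 0.998 in limma's test.

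Inhibitors of the pathway were higher in HF by their means in 12 of 17, and 2 of them had groups that did not overlap. These were the only 2 such genes among all 120 pathway genes tested, against 5.43% of all genes. Irf2bp1, a corepressor that binds IRF2, was at 706, 740.3, 799 and 875 normalised counts in HF 1 to HF 4 and 632, 536, 404 and 421 in LF 1 to LF 4. All HF libraries were above all LF libraries, and the ratio was 1.59-fold (95% interval 1.25 to 2.01, limma adjusted p = 0.164); DESeq2 gave a log2 difference of 0.62 with an adjusted p = 0.0285. Samhd1, a nucleotide hydrolase that limits interferon induction, was at 2315, 1897, 2154 and 2000.0 in the HF libraries and 2593, 2509, 2802 and 4356 in the LF libraries, with all HF libraries below all LF libraries and a ratio of 0.699-fold (95% interval 0.543 to 0.900, limma adjusted p = 0.277). Otud5, a deubiquitinase of TRAF3, was at 1006, 948, 1360.2 and 1239 in the HF libraries and 988, 896, 617 and 632 in the LF libraries, and Rnf125, a ligase that targets RIG-I, at 3421, 4127, 3314 and 3818 in the HF libraries and 2078, 2832, 3339 and 3388 in the LF libraries. Socs3, an inhibitor of JAK kinases, was at 20206, 17670.0, 21921 and 19426 in the HF libraries and 10097, 14142, 15057 and 21942 in the LF libraries. None of these passed limma's test.

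Other interferon-stimulated genes, 74 tested, were higher in HF by their means in 27, a share of 36.5% beside 35.7% for the members and 53.2% for all genes. Parp12, an antiviral ADP-ribosyltransferase, was at 1455, 1749.8, 2239 and 2907 in the HF libraries and 1621, 1428, 978 and 933 in the LF libraries, with LF 3 and LF 4 as the lowest libraries, unlike the members. Tor3a, an ATPase of the endoplasmic reticulum, was at 3764, 4037, 3674 and 4100.1 in the HF libraries and 2039, 2765, 3261 and 3751 in the LF libraries. Casp4, the caspase that senses lipopolysaccharide, was at 760.1, 491, 554 and 616 in the HF libraries and 606, 804, 1019 and 928 in the LF libraries, and Ifi203, a DNA-binding protein, at 2637, 2018, 2339.6 and 1795 in the HF libraries and 2749, 2555, 2822 and 2411 in the LF libraries. The surface protein gene Ly6a was at 29025, 31113, 26091 and 29776 in the HF libraries and 19417, 19829.9, 37594 and 41661 in the LF libraries. Another, Ly6c1, was at 18702, 20931, 17604 and 20180.1 in the HF libraries and 12020.0, 11926, 24299 and 30428 in the LF libraries. In both, as in Ly6e, LF 1 and LF 2 were below and LF 3 and LF 4 above all HF libraries. Adjusted p for these 6 genes ran from 0.244 to 0.941 in limma's test. Over all 120 pathway genes, and with the same caution on how the pairs were chosen, the fit without LF 1 and LF 2 called 4 higher and 13 lower in HF, and that without LF 3 and LF 4 called 28 higher and 2 lower, against 3.09%, 0.662%, 14% and 6.02% of all genes.

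The members followed their common pattern to different degrees. Pearson's r between a member and the mean of the other members over the 8 libraries was 0.985 for Ifit1, 0.979 for Ifit3 and 0.978 for Oasl2, the highest. It was 0.486 for Cxcl9, 0.441 for Parp14 and −0.12 for Ifi27l2a, the lowest. These are descriptions over 8 libraries that share their size factors and their makeup of cells. Outside the members, the 10 genes with the highest r to the members' mean, among 10874 with a mean of at least 50, had r from 0.954 to 0.989. They were Grtp1, Cxcl16, Trim30a, Birc3, H2-Eb1, Tgtp1, Rbms2, H2-T24, Psmb8 and H2-Q7. Of these 10 genes 1, Trim30a, was in the pathway lists. Grtp1, with the highest r, was at 2007, 1936, 1726 and 1890 in the HF libraries and 1689.8, 1690.4, 2164 and 2435 in the LF libraries. Tgtp1, an interferon-inducible GTPase, was at 772, 643, 528 and 605 in the HF libraries and 366, 486, 1567 and 3477 in the LF libraries. Psmb8, a subunit of the immunoproteasome, was at 3234, 3482, 2919 and 3446 in the HF libraries and 2262, 2619.6, 4544 and 5666 in the LF libraries, and H2-Eb1, of MHC class II, at 7201, 7038, 6306 and 6444 in the HF libraries and 4267, 5427, 9887 and 13132 in the LF libraries. In Grtp1, Tgtp1, Psmb8 and H2-Eb1, LF 1 and LF 2 were below and LF 3 and LF 4 above all HF libraries.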

How the data were processed

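The members and gene lists were chosen with earlier results of these data known. Tools named in the submitters' processing notes are DESeq2 1.24.0, featureCounts 2.0.0 and STAR 2.6.1b, with neither build nor annotation stated there. Deposited values are normalised counts (a signal), beside which the authors gave, per the file headers, their own log2 fold change, Wald score and p-value, raw and adjusted. Multiplied by a size factor of each library, 100% of values came out as whole reads (tolerance 0.01). All 34899 gene IDs matched GENCODE M21 (GRCm38), used for positions and exon lengths. The 17067 genes reaching 10 normalised counts in 4 or more libraries were tested with limma 3.58.1 in R 4.3.3 on log2(normalised count + 1) with a mean-variance trend, two-sided, Benjamini-Hochberg over all of them, and folds come from this scale, which understates changes of low genes. edgeR 4.0.16 and DESeq2 1.42.0 on recovered reads were among 21 alternatives. Only the main limma test was checked on simulated data, and the alternatives were not. All members were named; from each pathway list the 4 genes with the smallest unadjusted p and the 2 with the highest mean were named, and the 10 non-members most alike the members' mean by Pearson's r. Reads without molecular identifiers are not independent molecules, and 0 columns matched no sample. A gene that the rule names is not reported here.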

Additional observations from a re-analysis of the deposited data

Results flagged for a closer look

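Among 298 groups of 4 libraries looked at for members and pathway genes, 9 (3.02%) had 1 library far from the other 3 by Dixon's test, and chance flags about 1 in 20 groups. Mx2 had 430.8 normalised counts in HF 1, where the next HF library had 265. Herc6, a ligase for ISG15, had 1058 in HF 1 (next 912) and 1391 in LF 4 (next 971). Pnpt1, a mitochondrial RNA exonuclease, had 826 in LF 4 (next 698). Samhd1 had 4356 in LF 4 (next 2802). Xdh, xanthine dehydrogenase, had 22081 in LF 4 (next 11849). Ikbke, a kinase of interferon regulatory factors, had 77.6 in LF 2 (next 18.1). Traf3 had the low value of 276 in LF 3 (next 321). Ccl5, a chemokine, had 55.1 in HF 2 (next 11.0).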

How the results depend on the processing

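The members' direction changed with the LF libraries included. Without LF 1 and LF 2, 641 genes, 8 members and 17 pathway genes were called, 0 members had the higher mean in HF, 16 had groups that did not overlap (all lower in HF, against 10.5% of all genes) and their median log2 difference was −0.44. Without LF 3 and LF 4 these values were 3421, 11, 30, 23, 15 (14 higher and 1 lower, against 26.9% and 19.2% of all genes) and 0.29. These pairs were chosen from the data, so such calls follow the order of the libraries. Called members whose direction was the opposite of that with all libraries were Rtp4 (−0.44) in the first and Ifit1 (0.48), Bst2 (0.36), Irf9 (0.37) and Xaf1 (0.35) in the second; the cause was not tested. Leaving out 1 library in turn gave 0 to 1 genes called, 4 to 19 members with the higher mean in HF (4 without LF replicate 1, 17 without LF replicate 3, 19 without LF replicate 4), 0 to 1 non-overlapping members and a median of −0.17 to 0.08. DESeq2 called 313 genes and 1 pathway gene, and without a filter limma called 1 gene. Quantile normalisation gave 1 non-overlapping member, and scaling to endothelial markers, added after the data were seen, gave 1, with 3 members higher in HF against 27.6% of all genes. With all libraries and no rescaling, 5.43% of all genes had groups that did not overlap. That share was not taken for these 2 settings or for the fits without 1 library, so their non-overlapping members cannot be set against it. With the replicate number as a block 0 genes were called and the median was −0.06. Same-numbered HF and LF libraries correlated at 0.115, −0.222, −0.143 and 0.185 after each group was centred on its mean. With 4 libraries per group, these values cannot tell whether the numbers pair the libraries. No member was called under an alternative that kept at least 3 libraries per group. Mx1 and Cxcl9 rest on few reads.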

Other observations

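Some genes of the pathway, picked after their values were seen, went against or beyond the members' pattern. Socs1, an inhibitor of JAK kinases that is itself induced by interferons, had the opposite order among the LF libraries, at 596, 643, 727 and 529 normalised counts in HF 1 to HF 4 and 978, 784, 262 and 284 in LF 1 to LF 4. LF 1 and LF 2 were its highest libraries and LF 3 and LF 4 its lowest. Cd274, which encodes PD-L1, was at 1017, 1100.2, 827 and 1283 in the HF libraries and 672, 906, 1567 and 5232 in the LF libraries, with LF 4 far above the other libraries.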
